A study of Mus musculus with 4 samples.

Results

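The genes that carry a mammalian cell from G1 into S phase and copy its DNA were followed in MC38 cells edited for Cbfb. The set held 49 genes out of 26322 listed, taken by gene symbol: cyclins D and E with their kinases, Rb1 and E2F factors, origin licensing genes, fork enzymes, nucleotide enzymes and chromatin assembly genes. MC38 is a mouse line labelled as colorectal cancer. All cells had been electroporated with Cas9 and a synthetic guide RNA, non-targeting in the WT group and directed at Cbfb in the CbfbKO group, and were collected at least 1 week later. The cells were transiently transfected, and the sources used here describe no cloning step. RNA from 2 of 3 replicates collected per group went into QuantSeq 3′ mRNA libraries, which read the end of each transcript, and the remaining replicate of each group was set aside by the submitters for its RNA quality. The labels do not say that replicates were separate cultures, so the p-values measure only the spread between these libraries. The comparison asked whether loss of Cbfb, the shared partner subunit of the RUNX transcription factors, moved the mRNA levels of this machinery.

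In G1, D-type cyclins activate Cdk4 and Cdk6, which phosphorylate Rb and release E2F factors. E2F factors then drive transcription of cyclin E, of the origin recognition and MCM helicase genes and of the enzymes that make and polymerise deoxynucleotides. Licensing loads the MCM2-7 helicase on origins in G1, and Cdc45 and the GINS complex activate it in S phase. RUNX proteins bind a short core motif, and CBFβ strengthens that binding without contacting DNA itself.

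The libraries held 3396192 and 3335116 reads counted on genes in WT and 3907936 and 3189035 in CbfbKO, so that 1 read was worth 0.256 to 0.314 CPM (reads scaled to the library total). Cbfb itself, the targeted gene (chr8:105170674-105217989 in GRCm38), had 295 and 285 reads in WT and 125 and 125 in CbfbKO (log2 fold change -1.27, standard error 0.12, limma adjusted p = 1.76e-07). Its mRNA in CbfbKO was 41.5% of the WT level. The call on Cbfb was lost when either CbfbKO library was left out (adjusted p = 0.267 without CbfbKO 1 and 0.193 without CbfbKO 2) and without the mean-variance trend (0.115). These 3 fits called 0 genes of all tested, and the log2 fold change of Cbfb stayed between -1.41 and -1.12. The epithelial markers fixed for a colon carcinoma were close to absent, with Krt18, Vil1 and Cldn7 at 0 reads and a summed level of 1.77 to 1.80 CPM in WT and 1.57 to 1.79 CPM in CbfbKO over the 9 genes, of which 6 had any read. The mesenchymal markers summed to 2454 to 2596 CPM in WT and 2187 to 2294 CPM in CbfbKO over 4 genes, nearly all of it Vim. Of 6 blood cell markers 1 had a read in any library, and the 3 endothelial markers summed to at most 0.600 CPM.

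Promoter sequence is given first, since many of these genes are known E2F targets and the edited gene encodes the RUNX partner. RefSeq promoter windows (GRCm38.p6, 250 bases before to 50 after the start) were held for 39 of the 49 genes and not for Ccnd1, Ccnd2, Ccne2, Rb1, E2f4, Mcm4, Gins1, Gins2, Pole and Rfc2. An E2F motif (TTTCCCGC, TTTGGCGC, TTTCGCGC or TTTGCCGC, either strand) lay in the windows of 14 of 39 genes, 35.9%, while 2.6% of the 27025 genes with a window held one. The RUNX core (TGTGGT or TGCGGT, either strand) lay in 12 of 39, 30.8%, against 25.03% of all genes with a window. Both motifs were held by 4 genes. None of the E2F motifs contains the RUNX core on either strand, but E2F matches on opposite strands can overlap each other. Licensing genes are shown because they include the most negative fold changes of the set after Cdk6 (Orc1 and Orc6). Mcm5 and Mcm6 are shown beside them as genes with small log2 fold changes (-0.04 and -0.005). The window of Mcm2, with a log2 fold change of -0.0012, held neither motif and is not shown. Each line gives the 250 bases upstream of the RefSeq start, 5′ to 3′ on the gene's strand, with motif matches in capitals:
Orc1: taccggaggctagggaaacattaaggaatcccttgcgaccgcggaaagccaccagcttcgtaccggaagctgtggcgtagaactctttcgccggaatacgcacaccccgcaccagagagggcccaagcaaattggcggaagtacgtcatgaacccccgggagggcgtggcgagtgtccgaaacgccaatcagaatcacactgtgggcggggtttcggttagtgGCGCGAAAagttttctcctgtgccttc
Orc6: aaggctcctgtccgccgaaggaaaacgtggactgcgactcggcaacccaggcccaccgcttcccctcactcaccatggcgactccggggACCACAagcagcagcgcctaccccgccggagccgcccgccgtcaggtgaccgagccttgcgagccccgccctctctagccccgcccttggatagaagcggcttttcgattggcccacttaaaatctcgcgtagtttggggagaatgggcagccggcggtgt
Mcm5: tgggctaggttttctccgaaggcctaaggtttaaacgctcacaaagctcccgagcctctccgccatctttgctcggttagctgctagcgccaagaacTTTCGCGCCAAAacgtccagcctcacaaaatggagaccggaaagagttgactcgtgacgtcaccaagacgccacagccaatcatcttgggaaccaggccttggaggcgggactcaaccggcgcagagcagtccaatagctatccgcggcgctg
Mcm6: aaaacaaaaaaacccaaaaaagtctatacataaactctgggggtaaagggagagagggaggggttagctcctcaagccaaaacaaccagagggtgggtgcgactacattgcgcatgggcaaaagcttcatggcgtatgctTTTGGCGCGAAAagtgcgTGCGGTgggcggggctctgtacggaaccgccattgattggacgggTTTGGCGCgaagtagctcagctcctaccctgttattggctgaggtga
The Orc1 window lies at chr4:108579204-108579453 on the plus strand and holds 1 E2F match beginning 27 bases before the start, written at -27. The Orc6 window lies at chr8:85299382-85299631 on the plus strand, and its capitals are a RUNX core match at -161, read on the other strand. The Mcm5 window (chr8:75109259-75109508, plus strand) holds 2 overlapping E2F matches at -153 and -149. The Mcm6 window (chr1:128359706-128359955, minus strand) holds overlapping E2F matches at -110 and -106, a RUNX core at -92 and a further E2F match at -47. Among the other windows, those of Cdk2, E2f3, Cdc6, Mcm3, Mcm7, Cdt1, Rfc3, Pola1, Pold1, Lig1 and Uhrf1 held E2F matches, and those of Cdk4, Ccnd3, Mcm10, Orc2, Mcm3, Rpa1, Pold1, Rrm1, Tk1 and Uhrf1 held RUNX core matches. These are matches of letters in the windows, not measured binding.

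All 49 genes passed the low-value filter (a log2 CPM of 0 or more in 2 or more libraries, passed by 12207 genes in all), with 18 to 3072 reads per gene and library. At an adjusted p under 0.05 from limma, with Benjamini-Hochberg adjustment over all tested genes, 1 of the 49 was lower in CbfbKO (Ccnd1) and 0 were higher, 2.04% of the set beside 2.83% of all tested genes (1.57% higher and 1.25% lower). At an unadjusted p under 0.05 there were 6 higher and 5 lower, 22.4% of the set beside 14.9% of all tested genes, and voom on the recovered reads also called 0 higher at the adjusted threshold. The count moved with the processing: a minimum of 5 CPM called Ccnd1, E2f1 and Orc1 (3 of 49, beside 5.33% of the genes then tested), voom with TMM scaling called Ccnd1 and Orc1 (beside 3.48%), quantile normalization called Ccnd1 (beside 0.68%) and limma without the mean-variance trend called none of the set and none of all genes, with 3 of the 49 at an unadjusted p under 0.05. The median log2 fold change of the set was 0.04, with quartiles at -0.02 and 0.15, and the median of all tested genes was 0.04, with quartiles at -0.12 and 0.21. Differences smaller than 0.2 on the log2 scale were seen for 36 of the 49 (73.5%), and for 56.2% of all tested genes, which lay at lower levels (median 4.40 log2 CPM against 6.17 for the set). The 95% interval of the log2 fold change, before adjustment for the number of genes, lay within ±0.5 for 39 genes, with a median half-width of 0.23. Differences smaller than that were not detectable at this depth for most of them. Larger ones could also miss the adjusted threshold, as did Cdk6 (-0.77), Orc1 (-0.65) and E2f1 (0.33) at the main settings. Libraries of the groups did not overlap for 17 genes that were higher and 8 that were lower, 51.0% beside 44.1% of all tested genes (27.4% higher and 16.8% lower). Summed over all 49 genes the level was 5835 and 5872 CPM in WT and 5957 and 5828 CPM in CbfbKO, which overlapped. In bulk RNA, fewer cells using a gene and less of its RNA per cell cannot be told apart.

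**Figure D1:**
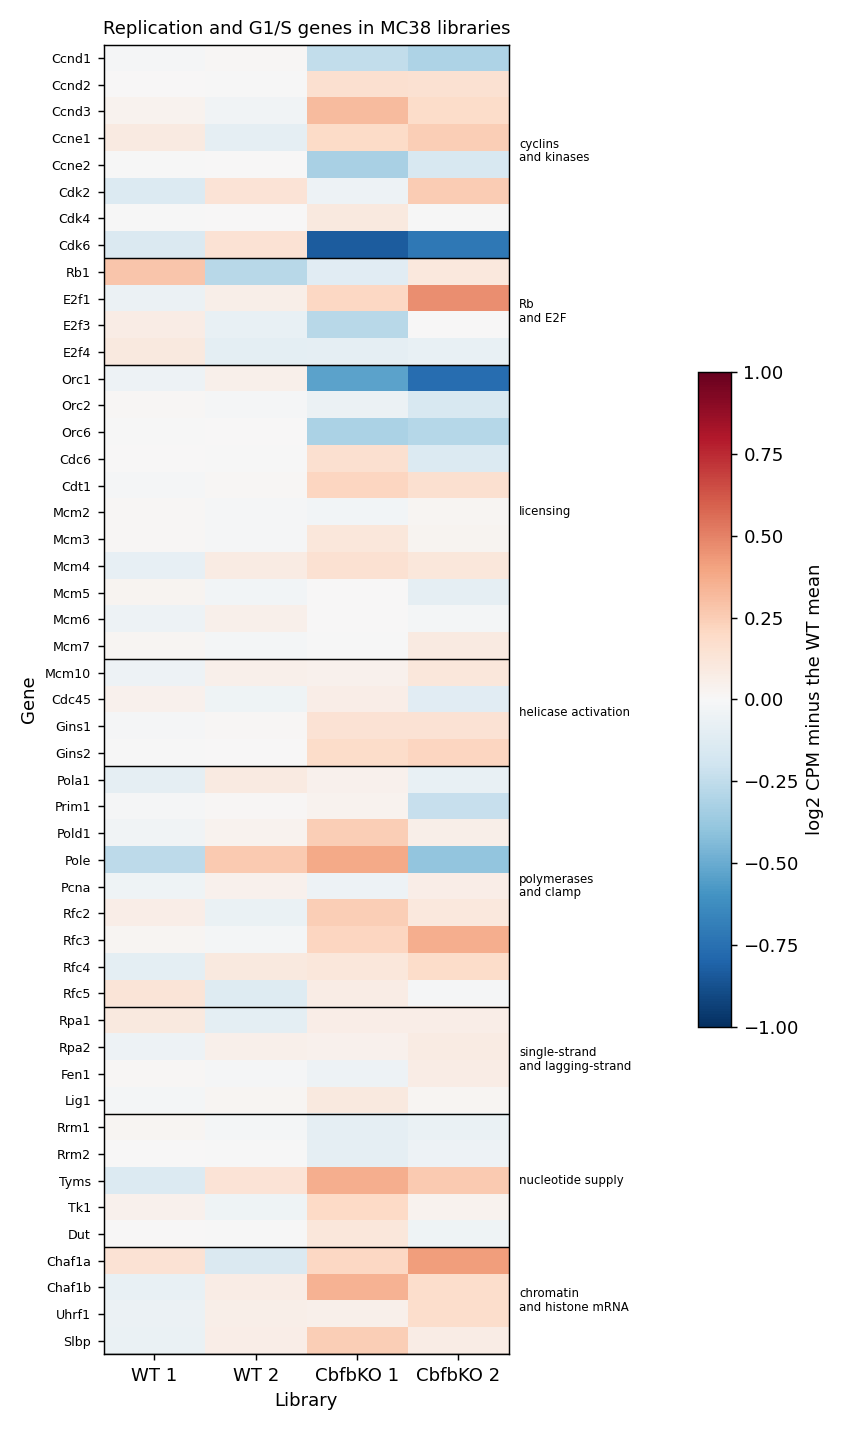
Heat map of the 49 genes (rows, by role) in the 4 libraries (columns), coloured by log2 CPM minus the mean of the 2 WT libraries. Most rows are pale in all 4 columns, while Cdk6 and Orc1 are the darkest blue rows in both CbfbKO libraries.

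The D-type cyclins had fold changes of opposite sign. Ccnd1, the cyclin D gene with the most reads here and the most strongly read gene of the set, was the 1 gene past the threshold. Its level was 903 and 921 CPM in WT and 771 and 738 CPM in CbfbKO, from 3068 and 3072 reads and 3013 and 2353 reads. Both CbfbKO libraries lay below both WT libraries by more than the libraries of either group lay apart. On the log2 scale it was 9.83 ± 0.020 (SD, n = 2) in WT and 9.56 ± 0.045 (SD, n = 2) in CbfbKO, a log2 fold change of -0.27 (standard error 0.055, 95% interval -0.39 to -0.16, adjusted p = 0.00353 from limma), which left 82.7% of the WT level. Ccnd1 lies at chr7:144929931-144939925 (GRCm38, minus strand), and its exons overlap those of LTO1 on the other strand. Its call was lost in limma when any 1 library was left out, with adjusted p = 0.0501 without WT 1, 0.0898 without WT 2, 0.472 without CbfbKO 1 and 0.511 without CbfbKO 2, while the log2 fold change stayed between -0.31 and -0.24. In the last 2 of these fits no gene passed at all, with 1104 and 1169 genes at an unadjusted p under 0.05.

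Ccnd2 and Ccnd3, the other D-type cyclins, lay higher in CbfbKO without passing the test. Ccnd2 was at 243 and 241 CPM in WT and 270 and 269 CPM in CbfbKO, a log2 fold change of 0.15 (standard error 0.068, 95% interval 0.01 to 0.30, adjusted p = 0.277 from limma). Ccnd3 was at 140 and 133 CPM in WT and 170 and 155 CPM in CbfbKO (log2 fold change 0.25, standard error 0.083, limma adjusted p = 0.114). For both genes the groups did not overlap. As a share of reads on the D-type cyclins, which carries no library scaling, Ccnd1 took 70.3% and 71.1% in WT and 63.7% and 63.5% in CbfbKO. The share of Ccnd2 was 18.9% and 18.6% in WT and 22.3% and 23.2% in CbfbKO, and that of Ccnd3 was 10.9% and 10.3% against 14.0% and 13.3%. Each share separated the groups by more than its replicates differed. The shares sum to the whole, so the lower Ccnd1 share by itself raises those of Ccnd2 and Ccnd3. They are not separate results. With 2 libraries per group an exact permutation test of such a share cannot go below p = 0.333, so none was run as a call. The summed D-type cyclin level was 1286 and 1295 CPM in WT and 1211 and 1162 CPM in CbfbKO, 91.9% of WT.

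**Figure D2:**
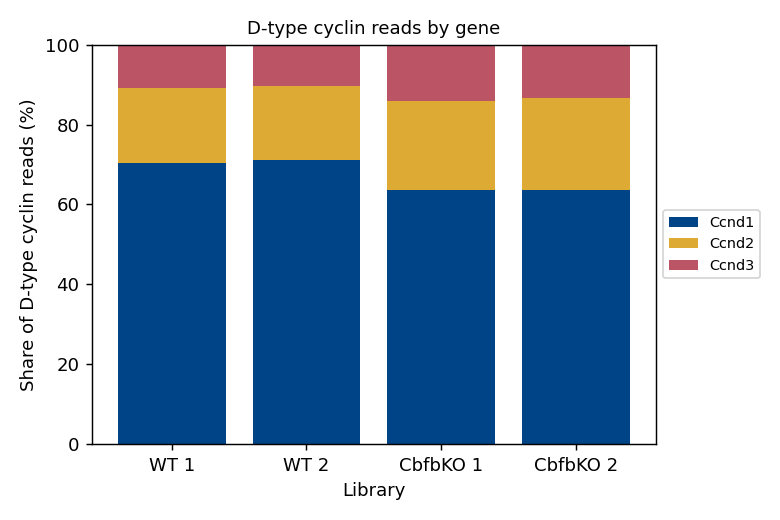
Stacked bars of the share of D-type cyclin reads (percent, from 0 to 100) on Ccnd1, Ccnd2 and Ccnd3 in each of the 4 libraries. The Ccnd1 part is 70.3% and 71.1% in the WT bars and 63.7% and 63.5% in the CbfbKO bars.

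The E-type cyclins, which activate Cdk2 at the entry into S phase, also had fold changes of opposite sign and neither passed the test. Ccne1 was at 56.2 and 49.8 CPM in WT and 60.6 and 63.0 CPM in CbfbKO (log2 fold change 0.22, adjusted p = 0.384 from limma). Ccne2 was at 71.8 and 72.3 CPM in WT and 57.3 and 64.3 CPM in CbfbKO (log2 fold change -0.25, adjusted p = 0.28 from limma). The ratio of Ccne1 to Ccne2 reads was 0.783 and 0.689 in WT and 1.06 and 0.980 in CbfbKO, so it did not overlap between groups, while their summed level did, at 128 and 122 CPM against 118 and 127 CPM.

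Cdk6 had the most negative fold change of the set but few reads. It had 39 and 47 reads in WT (11.5 and 14.1 CPM) and 27 and 24 reads in CbfbKO (6.91 and 7.53 CPM), a log2 fold change of -0.77 (standard error 0.27, 95% interval -1.32 to -0.22, adjusted p = 0.139 from limma). Its groups did not overlap, and its share of Cdk4 and Cdk6 reads was 8.59% and 10.3% in WT and 5.01% and 5.80% in CbfbKO. Cdk4, the partner kinase, stood at 122 and 123 CPM in WT and 131 and 122 CPM in CbfbKO, with a log2 fold change of 0.04 (95% interval -0.13 to 0.22). Cdk2 stood at 45.9 and 55.8 CPM in WT and 48.9 and 60.5 CPM in CbfbKO, overlapping between groups. The number of Ccnd1 reads per Cdk4 read was 7.39 and 7.47 in WT and 5.88 and 6.03 in CbfbKO. In this group of 8 cyclins and kinases 5 had an unadjusted p under 0.05, beside 14.9% of all tested genes, and of these Ccnd2 and Ccnd3 were higher and Ccnd1, Ccne2 and Cdk6 lower.

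**Figure D3:**
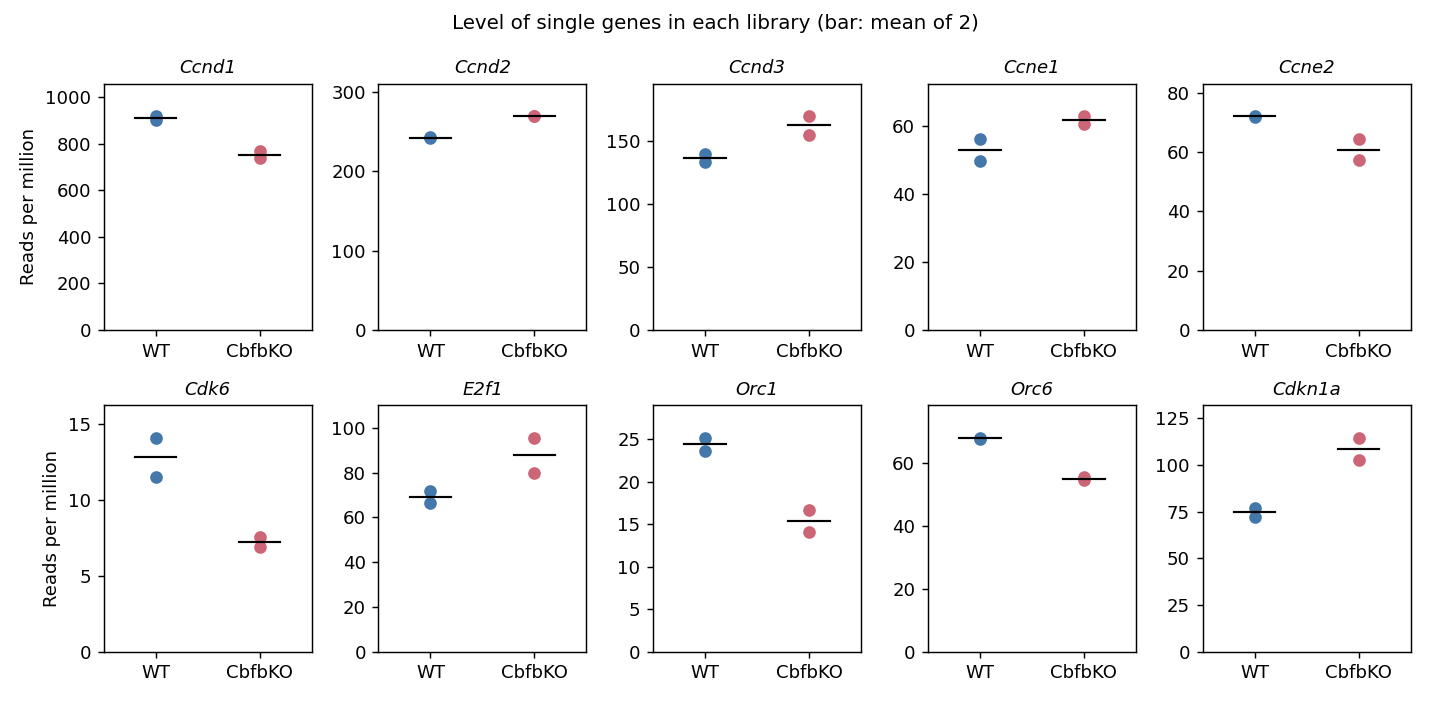
Level in CPM (vertical axis, from 0) of 9 genes of the set and of the CDK inhibitor Cdkn1a in each library, with a bar at the mean of the 2 libraries of WT (blue) or CbfbKO (red). The genes were picked for libraries that do not overlap, as is so for 44.1% of all tested genes and not for 24 of the 49, and both CbfbKO points lie above both WT points for Ccnd2, Ccnd3, Ccne1, E2f1 and Cdkn1a and below them for Ccnd1, Ccne2, Cdk6, Orc1 and Orc6.

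E2f1, an activator of S-phase genes, had the most positive fold change of the set. It stood at 66.5 and 72.0 CPM in WT and 79.8 and 95.6 CPM in CbfbKO, from 226 and 240 reads against 312 and 305 (log2 fold change 0.33, standard error 0.11, 95% interval 0.11 to 0.56, adjusted p = 0.107 from limma). The groups did not overlap, although the CbfbKO libraries lay further apart than the WT libraries. Among the alternatives, E2f1 passed the threshold only with a minimum of 5 CPM and with the replicate block. E2f1 took 36.3% and 41.0% of the reads on E2f1, E2f3 and E2f4 in WT and 45.7% and 46.9% in CbfbKO. E2f3, a second activator, was at 77.4 and 69.6 CPM in WT and 60.4 and 73.7 CPM in CbfbKO (log2 fold change -0.14, adjusted p = 0.643 from limma), with overlapping groups, and its sign turned when CbfbKO 1 was left out (0.0057). E2f4, mostly known as a repressor, was at 39.2 and 34.2 CPM against 34.3 and 34.8 CPM. Rb1 had only 28 and 18 reads in WT and 24 and 23 in CbfbKO, and its 95% interval ran from -0.65 to 0.64, so a difference of moderate size was not detectable for it.

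Within origin licensing 0 of 11 genes passed the test in limma (2.83% of all tested genes did), and the MCM helicase genes had fold changes near 0. The summed level of Mcm2 to Mcm7 was 1031 and 1039 CPM in WT and 1065 and 1064 CPM in CbfbKO, 103% of WT. At the same scaling, all tested genes had a median log2 fold change of 0.04. The 6 log2 fold changes lay between -0.04 (Mcm5) and 0.13 (Mcm4), and each of their 95% intervals lay within ±0.5. Mcm7 had the most reads of the group, at 320 and 312 CPM in WT and 315 and 336 CPM in CbfbKO (log2 fold change 0.04, standard error 0.066, adjusted p = 0.833 from limma). It overlapped between groups, and its sign turned without CbfbKO 2 (-0.0035). Pooled over all annotated transcripts, its exons overlap the microRNA genes Mir25 and Mir93 on the same strand and Ap4m1 and Cops6 on the other. Mcm2 stood at 136 and 134 CPM in WT and 133 and 137 CPM in CbfbKO, and Mcm6 at 138 and 148 CPM against 143 and 141 CPM, the closest of the 6 to no difference.

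Orc1, the ATPase subunit of the origin recognition complex whose upstream sequence with 1 E2F match is given above, had 80 and 84 reads in WT and 65 and 45 in CbfbKO. That is 23.6 and 25.2 CPM in WT and 16.6 and 14.1 CPM in CbfbKO, with no overlap (log2 fold change -0.65, standard error 0.19, 95% interval -1.05 to -0.25, adjusted p = 0.0707 from limma). Over its alternatives the adjusted p of Orc1 ran from 0.0326 to 0.551. Orc1 lies at chr4:108579423-108614833 (GRCm38, plus strand), and an exon of Gm12743 overlaps it on the other strand. Orc6, another subunit, was at 67.7 and 68.1 CPM in WT and 54.5 and 55.5 CPM in CbfbKO (log2 fold change -0.30, standard error 0.11, 95% interval -0.53 to -0.07, adjusted p = 0.166 from limma). Its replicates lay close together in both groups, and it overlaps exons of Vps35 on the other strand. Orc2 was at 101 and 98.9 CPM in WT and 96.0 and 89.4 CPM in CbfbKO (log2 fold change -0.11, adjusted p = 0.662 from limma). Per 100 reads on Mcm2 to Mcm7, Orc1 had 2.28 and 2.42 in WT and 1.56 and 1.33 in CbfbKO, Orc6 had 6.57 and 6.55 against 5.12 and 5.22, and Orc2 had 9.76 and 9.52 against 9.01 and 8.40. These 3 ratios did not overlap between the groups, and neither did the levels of 44.1% of all tested genes. Of the subunits outside the set, Orc5 was at 15.9 and 14.7 CPM in WT and 17.4 and 17.6 CPM in CbfbKO (log2 fold change 0.19, adjusted p = 0.748 from limma), and Orc3 and Orc4 overlapped between groups, with log2 fold changes of -0.08 and -0.04. At the main settings no ORC subunit passed the threshold in limma.

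Cdc6 and Cdt1, which load the MCM helicase, did not pass the test. Cdc6 was at 55.4 and 55.2 CPM in WT and 61.9 and 50.2 CPM in CbfbKO, a wide spread in CbfbKO around a log2 fold change of 0.01, which ran from -0.14 to 0.16 with 1 library left out. Cdt1 was at 89.8 and 91.8 CPM in WT and 106 and 101 CPM in CbfbKO (log2 fold change 0.19, adjusted p = 0.345 from limma), with no overlap. Of the 11 licensing genes, 2 had an unadjusted p under 0.05 (Orc1 and Orc6), 18.2% beside 14.9% of all tested genes, and the median log2 fold change of the group was -0.0012.

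**Figure D4:**
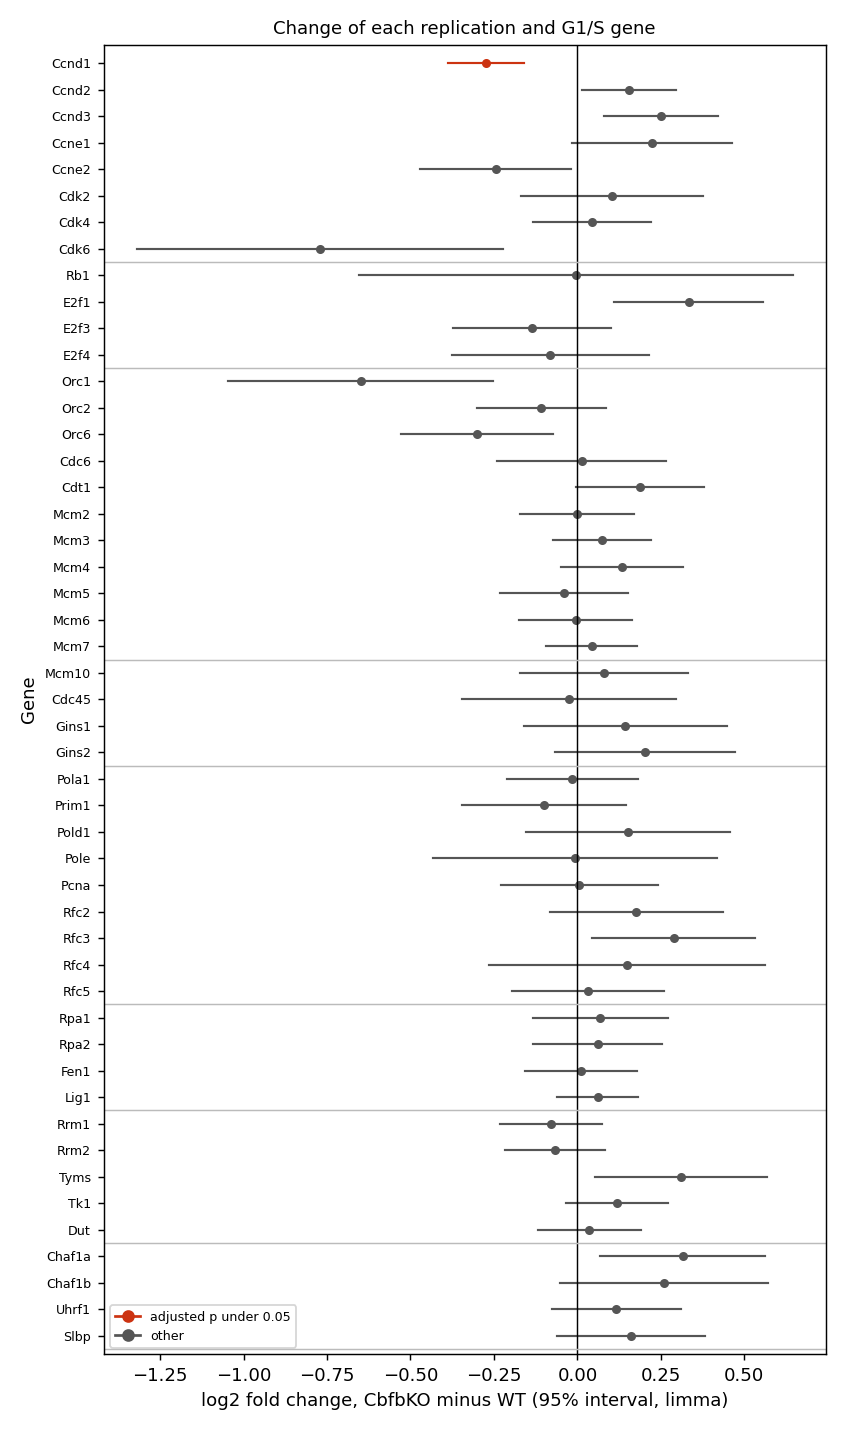
Log2 fold change of CbfbKO over WT (horizontal axis) for each of the 49 genes (rows, by role) with its 95% interval from limma, in red for Ccnd1, which had an adjusted p under 0.05. Intervals of Ccnd1, Ccne2, Cdk6, Orc1 and Orc6 lie wholly below 0 and those of Ccnd2, Ccnd3, E2f1, Rfc3, Tyms and Chaf1a wholly above it, before adjustment for the number of genes.

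Of the 4 helicase activation genes 0 passed in limma, and 0 had an unadjusted p under 0.05, beside 2.83% and 14.9% of all tested genes. Gins2, a GINS subunit, stood at 38.0 and 38.4 CPM in WT and 43.5 and 44.5 CPM in CbfbKO (log2 fold change 0.20, standard error 0.13, adjusted p = 0.516 from limma). Gins1, another subunit, had 102 and 102 reads in WT and 131 and 107 in CbfbKO, 33.5 and 33.6 CPM in the CbfbKO libraries of unequal depth (log2 fold change 0.14, standard error 0.15, adjusted p = 0.722 from limma). For both the replicates were close and the groups did not overlap, which held for 50% of these 4 genes beside 44.1% of all tested genes. The 95% intervals ran from -0.07 to 0.47 for Gins2 and from -0.16 to 0.45 for Gins1. Mcm10, which helps to start the activated helicase, was at 46.2 and 49.5 CPM against 49.4 and 51.7 CPM (log2 fold change 0.08, adjusted p = 0.835 from limma), and Cdc45 at 31.2 and 29.4 CPM against 31.7 and 27.9 CPM.

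Among polymerases, clamp and clamp loaders, 0 of 9 genes passed in limma (2.83% of all tested genes did) and 1 had an unadjusted p under 0.05, 11.1% beside 14.9%. Rfc3, a clamp loader subunit, was that gene, at 48.6 and 47.4 CPM in WT and 55.8 and 61.8 CPM in CbfbKO (log2 fold change 0.29, standard error 0.12, adjusted p = 0.233 from limma). Rfc2 was at 46.8 and 42.9 CPM in WT and 53.2 and 48.3 CPM in CbfbKO (log2 fold change 0.18, standard error 0.13, adjusted p = 0.566 from limma). Both had no overlap between groups, as had Rfc4 (0.15) and Pold1 (0.15), the catalytic subunit of polymerase delta, together 44.4% of this group beside 44.1% of all tested genes. Pola1, the catalytic subunit of polymerase alpha and the most read of these genes, was at 97.8 and 111 CPM in WT and 107 and 99.1 CPM in CbfbKO (log2 fold change -0.02, adjusted p = 0.967 from limma), a sign that turned without WT 2 (0.08) and without CbfbKO 2 (0.04). Pcna, the sliding clamp, was at 57.4 and 61.2 CPM against 57.1 and 62.1 CPM, with a 95% interval of -0.23 to 0.24. Pole, the catalytic subunit of polymerase epsilon, had the widest replicate spread of the set in CbfbKO, at 24.4 and 35.4 CPM in WT and 38.4 and 22.3 CPM in CbfbKO, and its log2 fold change of -0.01 is the mean of libraries 0.77 apart. Prim1, the primase, was at -0.10 and Rfc5 at 0.03 on the log2 fold change scale.

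The single-strand binding and lagging-strand genes overlapped between groups in 4 of 4 cases, as did 6818 of the 12207 tested genes. Lig1, the ligase that seals Okazaki fragments and the gene with the most reads after Ccnd1, was at 568 and 585 CPM in WT and 618 and 585 CPM in CbfbKO (log2 fold change 0.06, standard error 0.058, 95% interval -0.06 to 0.18, adjusted p = 0.701 from limma). Rpa1 was at 96.0 and 84.0 CPM in WT and 94.2 and 94.1 CPM in CbfbKO (log2 fold change 0.07, adjusted p = 0.819 from limma), and its sign turned without WT 2 (-0.03). Rpa2 had a log2 fold change of 0.06 and Fen1, the flap endonuclease, one of 0.01.

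In nucleotide supply, Tyms, which makes thymidylate, was at 43.6 and 53.1 CPM in WT and 61.9 and 57.7 CPM in CbfbKO (log2 fold change 0.31, standard error 0.12, 95% interval 0.05 to 0.57, adjusted p = 0.214 from limma). Its groups did not overlap, but the WT libraries lay further apart than the nearest libraries of the groups. Tk1, the thymidine kinase, was at 246 and 233 CPM in WT and 275 and 246 CPM in CbfbKO (log2 fold change 0.12, adjusted p = 0.496 from limma), with 1 CbfbKO library inside the WT range. The proportion of the ribonucleotide reductase subunits overlapped between groups, at 0.976 and 0.954 Rrm1 reads per Rrm2 read in WT and 0.962 and 0.952 in CbfbKO. Their log2 fold changes were -0.08 and -0.07, and that of Dut, which removes dUTP, was 0.04.

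The chromatin genes had the highest group median, a log2 fold change of 0.21 over 4 genes. None passed the test in limma (2.83% of all tested genes did). Of the 4, 1 had an unadjusted p under 0.05 (14.9% of all tested genes) and 3 had no overlap between groups (44.1% of all tested genes). Chaf1a, the large subunit of the chromatin assembly factor that places histones behind the fork, was at 63.0 and 51.6 CPM in WT and 66.0 and 76.5 CPM in CbfbKO (log2 fold change 0.32, standard error 0.12, 95% interval 0.07 to 0.56, adjusted p = 0.187 from limma). The gap between the groups was smaller than the spread within either. Chaf1b, its partner, was at 27.7 and 30.6 CPM in WT and 37.1 and 32.9 CPM in CbfbKO (log2 fold change 0.26, adjusted p = 0.45 from limma), also with no overlap. Slbp, the histone mRNA binding protein, was at 66.8 and 73.5 CPM against 83.4 and 73.7 CPM, and Uhrf1, which couples maintenance methylation to replication, at 93.3 and 101 CPM against 101 and 110 CPM (log2 fold change 0.12, adjusted p = 0.626 from limma).

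Without Ccnd1, the other 48 genes summed to 4932 and 4951 CPM in WT and 5186 and 5091 CPM in CbfbKO, 104% of WT. At the same scaling, the median log2 fold change was 0.05 for these 48 genes and 0.04 for all tested genes. Ccnd1 alone took 15.5% and 15.7% of the reads on the set in WT and 12.9% and 12.7% in CbfbKO. Replicates differed little on these genes, with a median absolute difference of 0.09 on the log2 scale in WT and 0.10 in CbfbKO. Over the 49 genes the replicate chi-square divided by its degrees of freedom was 0.974 in WT, about as close as read sampling allows, and 1.68 in CbfbKO, further apart. For all 9520 genes that had 10 or more reads in each library it was 1.58 in WT and 2.15 in CbfbKO, beyond read sampling in both groups, with median differences of 0.14 and 0.14 on the log2 scale. The pair of replicates farthest apart was that of Rb1 in WT (0.56) and of Pole in CbfbKO (0.77).

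**Figure D5:**
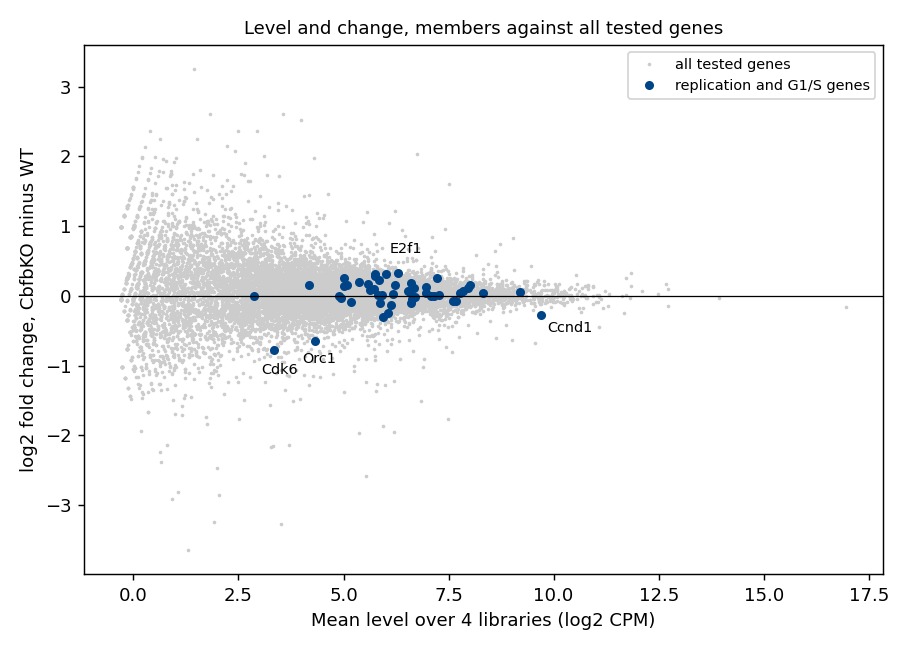
Mean level over the 4 libraries (horizontal axis, log2 CPM) against the log2 fold change of CbfbKO over WT (vertical axis) for all 12207 tested genes (grey) and the 49 replication and G1/S genes (blue). The blue points lie between -0.77 and 0.33, with Cdk6 and Orc1 lowest and E2f1 highest, inside the span of grey points at their levels.

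Other genes of the same pathways and of the next phase were read from the same fit. Of 62 further replication and G1/S genes, chosen by function, 0 passed in limma in either direction, with 4 higher and 2 lower at an unadjusted p under 0.05 (9.68%) and a median log2 fold change of 0.01. Of all tested genes 2.83% passed and 14.9% had an unadjusted p under 0.05. The smallest p among them was that of E2f8, an atypical repressor of the E2F family, at 50.4 and 46.8 CPM in WT and 36.3 and 37.6 CPM in CbfbKO (log2 fold change -0.39, standard error 0.13, adjusted p = 0.126 from limma). Of 20 mitosis and G2/M genes 0 passed in limma, with 4 higher and 1 lower at an unadjusted p under 0.05 (25%) and a median of -0.02. The smallest p there was that of Cenpf, a kinetochore protein, at 293 and 286 CPM in WT and 256 and 240 CPM in CbfbKO (log2 fold change -0.23, adjusted p = 0.0827 from limma), and it passed as lower in 4 of the alternatives, voom with TMM scaling among them.

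The CDK inhibitors, which act on the cyclin and kinase members, included 1 gene past the threshold among the 6 of 7 that were tested, beside 2.83% of all tested genes (1.57% higher). Cdkn1a, which encodes p21 and binds cyclin-CDK complexes, rose from 246 and 256 reads in WT to 401 and 366 in CbfbKO. At 72.4 and 76.8 CPM in WT and 103 and 115 CPM in CbfbKO it was 1.45-fold higher (log2 fold change 0.54, standard error 0.098, 95% interval 0.34 to 0.74, adjusted p = 0.00146 from limma). Its call was lost without CbfbKO 1 (adjusted p = 0.445), without CbfbKO 2 (0.511), without the mean-variance trend (0.291) and after quantile normalization (0.0925). The first 3 of these fits called 0 genes of all tested, and with 1 library left out the log2 fold change of Cdkn1a stayed between 0.46 and 0.62. Cdkn1b stood at 49.8 and 48.6 CPM in WT and 50.9 and 46.4 CPM in CbfbKO. Cdkn2a had 5 and 4 reads in WT and 9 and 5 in CbfbKO, and Cdkn1c, with 2 reads in 1 WT library and 0 in the others, was not tested. Cdkn2b, Cdkn2c and Cdkn2d had log2 fold changes of -0.32, -0.06 and 0.02, none past the threshold.

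Because the counting's use of strand is not given in the sources used here, reads from overlapping genes may have been shared. Exons of 24 of the 49 genes overlap another gene in GENCODE M21, on the same strand for Mcm7 and Rpa1 and on the opposite strand for 23 genes, among them Ccnd1, Cdk6, Orc1 and Orc6. The part of this in their values was not tested.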

How the data were processed

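3′ mRNA was sequenced from 2 WT and 2 CbfbKO MC38 libraries made from RNA with integrity numbers above 9. Per the submitters' processing notes and methods, reads were trimmed with cutadapt 1.9, aligned to GRCm38/mm10 with HISAT2 2.1.0 and counted per gene with featureCounts. Its version is 2.0.1 in the notes, while the methods name a different one. The annotation release, the use of strand and the treatment of multimapping reads are not given in the sources used here, and each could change values of overlapping or duplicated genes. The deposited values are log2 CPM scaled to each library's total, made by the authors with an implied prior count of 2, which pulls fold changes of genes with few reads towards 0.

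Reads were recovered from the deposited log2 steps, 100% of values falling within 0.1 of a whole number, and CPM printed per library are these reads over the library total. Totals ranged from 3189035 to 3907936, so a gene with few reads carries large counting error. Rn45s and Rn18s took 12.8% to 15.5%.

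Differences were tested with limma 3.58.1 in R 4.3.3 (lmFit, eBayes with a mean-variance trend, two-sided, Benjamini-Hochberg over 12207 genes, threshold 0.05). Of these, 345 passed, 192 higher and 153 lower in CbfbKO, and with median centring 176 and 188. The median log2 fold change of all tested genes was 0.039. On libraries simulated for this comparison at 12236 genes, the test found 98 of 195 changed genes, with 1 false call. The share found at fold changes as small as those of the 49 genes was not tested. The members and lists were chosen with earlier results of these data known. Full values are given for genes past the threshold, for the 2 smallest p-values and the highest level per role, and for the 3 largest differences in each direction, and other genes are given more briefly. Of the other lists, genes past the threshold or the one with the smallest p are named, and, chosen after their values were seen, Orc3, Orc4, Orc5, Cdkn1b, Cdkn1c, Cdkn2a, Cdkn2b, Cdkn2c and Cdkn2d. Alternatives were other filters, scalings, variance models and pseudocounts, voom on recovered reads (library totals or TMM, trimming 30% of ratios and 5% of levels), a replicate block, leaving out each library and a threshold of 0.01. Promoter sequences are RefSeq's and positions GENCODE M21's, matched by symbol for all 49 genes. Figures were drawn with matplotlib 3.10.9 in Python 3.11.15.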

Additional observations from a re-analysis of the deposited data

How the results depend on the processing

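Among the 49 genes, the count of higher calls was 0 and that of lower calls 1 (Ccnd1). With a minimum of 5 CPM, 1 was higher and 2 were lower (E2f1, with Ccnd1 and Orc1), where 5.33% of tested genes passed. Voom with TMM called 2 lower, Ccnd1 and Orc1, where 3.48% passed. Without the mean-variance trend 0 passed, with 3 of the 49 at an unadjusted p under 0.05, and Ccnd1 had an adjusted p of 0.450. With any 1 library left out 0 to 0 were lower. The replicate block, which pairs libraries by number only (correlation of same-numbered deviations -0.0042), gave 1 higher and 2 lower of the 49 and 320 higher and 215 lower over all genes. E2f1 had adjusted p-values of 0.045 (minimum of 5 CPM) and 0.0478 (block), and Orc1 0.0326, 0.0333 and, with voom and TMM, 0.0381. Ccnd1 ranged from 5.54e-06 to 0.511 over all alternatives.

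The members' median log2 fold change, 0.0445, was 0.0245 with quantile normalization, 0.0217 with median centring, 0.0216 with the ribosomal genes left out, 0.0114 with voom and TMM, and 0.0392 to 0.0685 with 1 library left out. Leaving out 1 library gave -0.28 to 0.0057 for E2f3, -0.0035 to 0.090 for Mcm7, -0.11 to 0.078 for Pola1 and -0.028 to 0.16 for Rpa1. Over all genes, higher calls numbered 192, then 300 with a minimum of 5 CPM, 39 with quantile normalization, 0 without the trend, 103 at 0.01 and 0 to 115 with 1 library left out. Lower calls numbered 153, then 44 with quantile normalization, 0 without the trend, 243 with voom and TMM (182 higher), 97 at 0.01 and 0 to 86 with 1 library left out. CDK inhibitors higher numbered 1, then 0 with quantile normalization or without the trend and 0 to 1 with 1 library left out. Mitosis genes lower numbered 0, then 1 (Cenpf) with a minimum of 5 CPM, median centring, ribosomal genes left out and voom with TMM. Cbfb stayed at -1.27 without the trend (adjusted p = 0.115) and between -1.41 and -1.12 with 1 library left out. The other 145 alternatives for counts, the median and Cbfb were taken as unchanged, which allowed moderate shifts. Over all genes these included 140 higher calls without the low-value filter and 258 with voom on library totals. They also included 209 lower calls with a minimum of 5 CPM. For the genes given in full 311 kept direction and call, 9 lost a call, 5 gained one and 5 changed sign without a call. The cause of these changes was not tested, except that a minimum of 5 CPM tests fewer genes and a left-out library leaves 1 sample in its group, assumed to vary like the others. The planned edgeR fit was not run, and voom was the test used on recovered reads.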
